A study of Mus musculus with 31 samples.

Results

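Cholesterol and fatty acid synthesis genes, with the regulators that set their level, were followed through neural stem cell cultures, medulloblastoma cultures and medulloblastoma tissue of the mouse. The set was a list of 31 named genes, chosen by function. A gene was represented by 1 probe set, the one with the highest mean over all arrays among probe sets with a single gene symbol, and 30 of the 31 genes were measured in this way, out of 18194 genes in all. Acat2, a thiolase at the head of the pathway, was not measured. The 30 genes were 17 of sterol synthesis (the sterol arm), 9 of fatty acid synthesis and desaturation (the fatty acid arm) and 4 regulators and transport genes (Insig1, Srebf1, Srebf2 and Stard4).

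The study measured RNA on 31 Affymetrix arrays, all from C57BL/6 mice. Neural stem cells (NSC), for which no genotype was given, came from 3 places at postnatal day 7: the forebrain's subventricular zone (SVZ), the IV ventricle region of the hindbrain and cerebellar white matter, with 3 cultures per region. Tumour cultures (named CSC by the submitters) came from 8 medulloblastomas of Ptch het p53 wt mice, each a line from 1 tumour, and the tissue of the same 8 tumours was measured as well. A further pair of medulloblastomas, 27 and B, came from Ptch het p53 het mice, and the 3 arrays of each, labelled as technical replicates although their names carry more than 1 date mark, were averaged, which left 27 samples. Every tumour sample thus carried the Ptch het allele, and no stem cell sample was labelled with it. No age was given for the tumours. All cultures were grown as neurospheres, floating spheres fed with EGF and FGF2, and were collected 3 to 5 days after plating. The tissue had not passed through this culture.

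Cholesterol is built from acetyl units through mevalonate, squalene and lanosterol, and fatty acids are built from the same acetyl units. Both branches are switched on by the sterol regulatory element binding proteins (SREBP). The product of Srebf2 mainly drives the sterol branch and products of Srebf1 mainly the fatty acid branch, while Insig proteins hold the SREBP precursors back in the endoplasmic reticulum when sterols are plentiful. SREBP bind sterol regulatory elements together with the factor NF-Y, which recognises the CCAAT box. In the brain, where blood cholesterol does not enter, cells rely on this synthesis.

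Most promoters of the set held the CCAAT box, 20 of the 23 that could be read. In RefSeq promoter windows of build GRCm38.p6, which reach from 250 bases before to 50 bases after the start of transcription, 23 of the 30 measured genes had an entry. The letters CCAAT, searched on both strands, were present in all 14 sterol arm promoters, in the 3 regulator promoters with an entry and in 3 of 6 fatty acid arm promoters (Fasn, Acly and Acss2). The letters were present in 37.4% of 32851 promoters of all genes, in 42.0% of the 14453 measured genes with an entry and in 43.6% of the 7504 of these in the brighter part of the array, above the median gene. The core letters of the sterol regulatory element, TCACNCCA on either strand, were present in the promoters of Hmgcs1, Msmo1 and Srebf2, against 4.4% of all promoters. The GC box GGGCGG was present in 19 of the 23 promoters, against 72.8% of the brighter measured genes. A match of letters is a description and does not show that a factor binds there.

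The 180 bases before the promoter table's start site are printed for 7 genes that the results turn on: the synthase before mevalonate (Hmgcs1), a gene with 5 CCAAT boxes (Mvk), 2 steps after lanosterol (Msmo1 and Cyp51), the 1 sterol arm gene not called between cultures and tissue (Ebp), the sterol regulator (Srebf2) and the fatty acid synthase (Fasn). Capitals mark CCAAT, its reverse complement ATTGG, or the sterol regulatory element core. In GRCm38.p6 the windows are chr13:119690171-119690350 (plus strand), chr5:114444089-114444268 (plus strand), chr8:64733579-64733758 (minus strand), chr5:4104698-4104877 (minus strand), chrX:8193513-8193692 (minus strand), chr15:82147089-82147268 (plus strand) and chr11:120824548-120824727 (minus strand).
Hmgcs1: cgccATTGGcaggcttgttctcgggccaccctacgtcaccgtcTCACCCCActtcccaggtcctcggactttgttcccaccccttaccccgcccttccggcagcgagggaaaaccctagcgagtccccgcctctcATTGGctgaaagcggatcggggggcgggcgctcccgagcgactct
Mvk: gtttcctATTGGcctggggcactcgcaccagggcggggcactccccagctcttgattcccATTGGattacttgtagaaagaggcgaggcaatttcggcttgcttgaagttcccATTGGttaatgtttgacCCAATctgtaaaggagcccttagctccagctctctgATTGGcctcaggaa
Msmo1: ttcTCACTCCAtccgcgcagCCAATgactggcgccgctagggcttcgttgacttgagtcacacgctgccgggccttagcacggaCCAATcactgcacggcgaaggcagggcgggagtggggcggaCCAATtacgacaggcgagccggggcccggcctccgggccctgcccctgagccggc
Cyp51: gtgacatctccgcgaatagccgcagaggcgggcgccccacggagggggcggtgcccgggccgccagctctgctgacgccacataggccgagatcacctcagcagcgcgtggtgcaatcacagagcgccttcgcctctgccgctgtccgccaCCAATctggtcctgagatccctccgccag
Ebp: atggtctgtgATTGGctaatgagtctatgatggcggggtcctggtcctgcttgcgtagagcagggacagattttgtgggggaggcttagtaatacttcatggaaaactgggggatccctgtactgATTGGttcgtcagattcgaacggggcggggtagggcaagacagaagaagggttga
Srebf2: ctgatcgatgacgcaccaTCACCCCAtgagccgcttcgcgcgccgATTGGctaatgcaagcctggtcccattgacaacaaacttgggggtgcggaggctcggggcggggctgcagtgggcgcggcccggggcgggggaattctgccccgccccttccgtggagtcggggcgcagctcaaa
Fasn: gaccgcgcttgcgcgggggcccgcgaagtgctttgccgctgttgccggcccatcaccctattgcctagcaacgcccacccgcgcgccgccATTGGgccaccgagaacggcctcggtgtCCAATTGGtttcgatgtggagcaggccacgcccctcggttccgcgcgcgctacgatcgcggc
These windows held 2 CCAAT boxes and 1 sterol element core in Hmgcs1, 5 CCAAT boxes in Mvk, 3 boxes and 1 core in Msmo1, 1 box in Cyp51, 2 boxes in Ebp, 1 box and 1 core in Srebf2 and 3 boxes in Fasn, where a pair of opposite boxes overlaps. Ebp held the CCAAT letters too.

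Values below are RMA log2 intensities, on which 1 unit is a 2-fold change. Differences are given ± SE of the limma fit, and "called" means a Benjamini-Hochberg adjusted p under 0.05 over all 18194 genes. Levels of different genes come from different probe sets and are not compared with each other. Array medians lay between 3.17 and 3.32, and the median over genes of the mean level was 4.46. The marker check set tissue apart from cultures: the summed level of 5 neural stem cell markers (Nes, Sox2, Vim, Msi1 and Fabp7) was 13.2 to 13.6 in the 8 p53 wild-type lines, 13.2 to 13.7 in the NSC and 10.6 to 11.4 in the tissues, and it was 12.1 in one and 12.4 in the other p53 het tumour. Sums were taken over unlogged intensities, so the brightest markers weigh most. Of the 5 markers 4 were called higher and 1 lower in the lines than in tissue, against 26.6% and 23.1% of all genes. Against hindbrain NSC 1 was called, lower in the lines, against 6.06% of all genes called lower. The NSC cultures of a region are labelled as biological replicates. Nothing in the labels says that they came from separate animals, so p-values measure the spread between these samples.

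**Figure D1:**
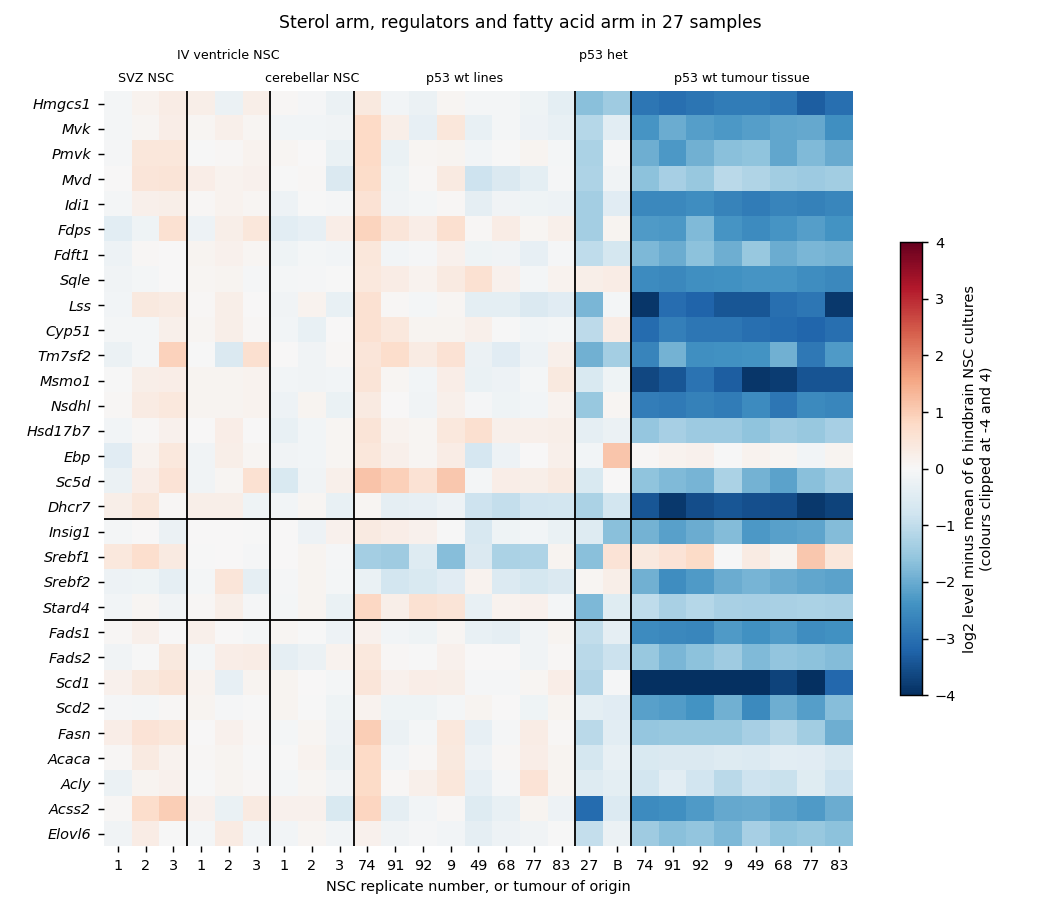
Each cell is the RMA log2 level of 1 gene (row) in 1 sample (column), less the mean of that gene over the 6 hindbrain NSC cultures (IV ventricle and cerebellar); columns are grouped by origin and rows run from the sterol arm through the 4 regulators to the fatty acid arm. The 8 tissues are blue in nearly every row, Srebf1 and Ebp apart, tumour 27 is the bluest column among the cultures, and line 74, with the highest level of the 8 lines for 25 genes, is the reddest line.

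Regional stem cell cultures showed small differences in the set, and none was called. IV ventricle and cerebellar NSC, the neighbouring hindbrain regions, had differences of mostly 1 sign: all 17 sterol arm genes and 8 of 9 fatty acid arm genes had higher means in IV ventricle NSC. The median difference was 0.21 in the sterol arm and 0.09 in the fatty acid arm, against -0.01 over all genes. None of the 30 genes was called by limma, and the background was 0% of all genes called. At an unadjusted p under 0.05 there were 3 of the 30 (Mvk, Fdft1 and Msmo1, all with an adjusted p of 1) and 559 of 18194 genes.

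The largest hindbrain differences were in Mvd and Sc5d. Mvd, the decarboxylase that makes isopentenyl diphosphate, read 7.68, 7.54 and 7.57 in IV ventricle NSC and 7.38, 7.43 and 6.81 in cerebellar NSC. The 2 regions did not overlap, and the difference was 0.39 ± 0.18 (limma adjusted p = 1). Sc5d, a sterol desaturase late in the pathway, read 7.53, 7.78 and 8.28 against 7.08, 7.55 and 7.89, with overlap and a difference of 0.36 ± 0.27. Msmo1, a methylsterol oxidase singled out after its values were seen, hardly varied within either region. It read 9.50, 9.49 and 9.50 in IV ventricle NSC and 9.27, 9.24 and 9.26 in cerebellar NSC, a difference of 0.24 ± 0.10 (limma adjusted p = 1). In all, 6 sterol arm genes had every IV ventricle culture above every cerebellar culture, against 2.47% of all genes.

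In the fatty acid arm Fads2, which desaturates polyunsaturated fatty acids, read 8.89, 9.23 and 9.25 in IV ventricle NSC and 8.62, 8.73 and 9.10 in cerebellar NSC. The regions overlapped, and the difference was 0.31 ± 0.18. Acss2, which makes acetyl-CoA from acetate, differed by 0.17 ± 0.28. Insig1 read 8.03, 8.03 and 7.998 in IV ventricle NSC and 8.03, 7.82 and 8.19 in cerebellar NSC, and Srebf2 8.16, 8.73 and 7.88 against 8.20, 8.34 and 8.155. The differences were 0.01 ± 0.11 for Insig1, -0.05 ± 0.10 for Srebf1 and 0.03 ± 0.19 for Srebf2, all with overlap.

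Against forebrain NSC, the regulator with the largest regional difference was Srebf1. It read 8.65, 8.89 and 8.58 in SVZ cultures, 8.21, 8.23 and 8.17 in IV ventricle cultures and 8.24, 8.34 and 8.16 in cerebellar cultures. Every SVZ culture was above every hindbrain culture. The difference from SVZ was -0.51 ± 0.10 for IV ventricle NSC (limma adjusted p = 0.0727) and -0.46 ± 0.10 for cerebellar NSC (limma adjusted p = 0.0846), so neither passed the threshold. The 2 differences share the SVZ cultures.

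Fasn, the fatty acid synthase, went the same way. It read 9.78, 10.06 and 9.97 in SVZ NSC, 9.55, 9.68 and 9.55 in IV ventricle NSC and 9.43, 9.60 and 9.30 in cerebellar NSC. The SVZ cultures were again the 3 highest of the 9. The difference from SVZ was -0.35 ± 0.11 for IV ventricle and -0.49 ± 0.11 for cerebellar NSC (limma adjusted p = 0.304 and 0.0863). Scd1, the stearoyl-CoA desaturase that makes monounsaturated fatty acids, differed by -0.37 ± 0.14 and -0.33 ± 0.14 (limma adjusted p = 0.439 and 0.353). Acss2 read 7.77, 8.42 and 8.70 in SVZ NSC, 7.88, 7.46 and 8.07 in IV ventricle NSC and 7.89, 7.87 and 7.12 in cerebellar NSC. The regions overlapped, and its differences from SVZ, -0.50 ± 0.28 and -0.67 ± 0.28, were the largest of the arm (limma adjusted p = 0.676 and 0.335).

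The sterol arm lay close to SVZ levels in IV ventricle NSC, with a median difference of -0.03 and 7 genes positive of 17. The largest differences were in Pmvk (-0.22 ± 0.15) and Tm7sf2 (-0.19 ± 0.34). Pmvk, the phosphomevalonate kinase, read 6.93, 7.44 and 7.45 in SVZ and 6.99, 7.02 and 7.14 in IV ventricle NSC. Tm7sf2, a sterol reductase, read 6.90, 7.06 and 8.07 in SVZ and 7.12, 6.57 and 7.79 in IV ventricle NSC. Both overlapped between the regions. Cerebellar NSC were lower than SVZ NSC in the means of 16 of 17 sterol arm genes, with a median of -0.21 against 0.03 over all genes. Mvd read 7.42, 7.89 and 7.93 in SVZ NSC and differed by -0.54 ± 0.18 (limma adjusted p = 0.238), with 1 cerebellar culture, at 6.81, well below the others. Nsdhl, a sterol dehydrogenase, read 8.997, 9.29 and 9.38 in SVZ NSC and 8.75, 9.06 and 8.70 in cerebellar NSC, a difference of -0.39 ± 0.13 (limma adjusted p = 0.231).

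No gene of the set was called in either forebrain comparison by limma. The background was 0.764% of all genes (0.412% lower) for IV ventricle and 1.1% (0.572% higher, 0.533% lower) for cerebellar against SVZ NSC. Regions did not overlap for 1 gene of the set higher (Fdft1) and 3 lower (Srebf1, Scd1 and Fasn) in IV ventricle NSC, against 7.61% and 7.62% of all genes, and for 1 gene higher (Srebf2) and 5 lower (Mvk, Msmo1, Srebf1, Scd1 and Fasn) in cerebellar NSC, against 11.5% and 9.42%. At an unadjusted p under 0.05 there were 3 of 30 genes in the former and 8 of 30 in the latter, against 1730 and 2498 of 18194. Insig1 read 7.93, 8.04 and 7.78 in SVZ NSC, and Srebf2 8.05, 8.07 and 7.90. Insig1 differed from SVZ by 0.10 ± 0.11 in both hindbrain regions, and Srebf2 by 0.25 ± 0.19 and 0.23 ± 0.19. IV ventricle and SVZ cultures deviated together by replicate number, and with that number as a block Srebf1 was called lower in IV ventricle NSC (limma adjusted p = 0.0491). With the date mark of the sample name as a block Srebf1 was called lower in cerebellar than in SVZ NSC (limma adjusted p = 0.0438).

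**Figure D2:**
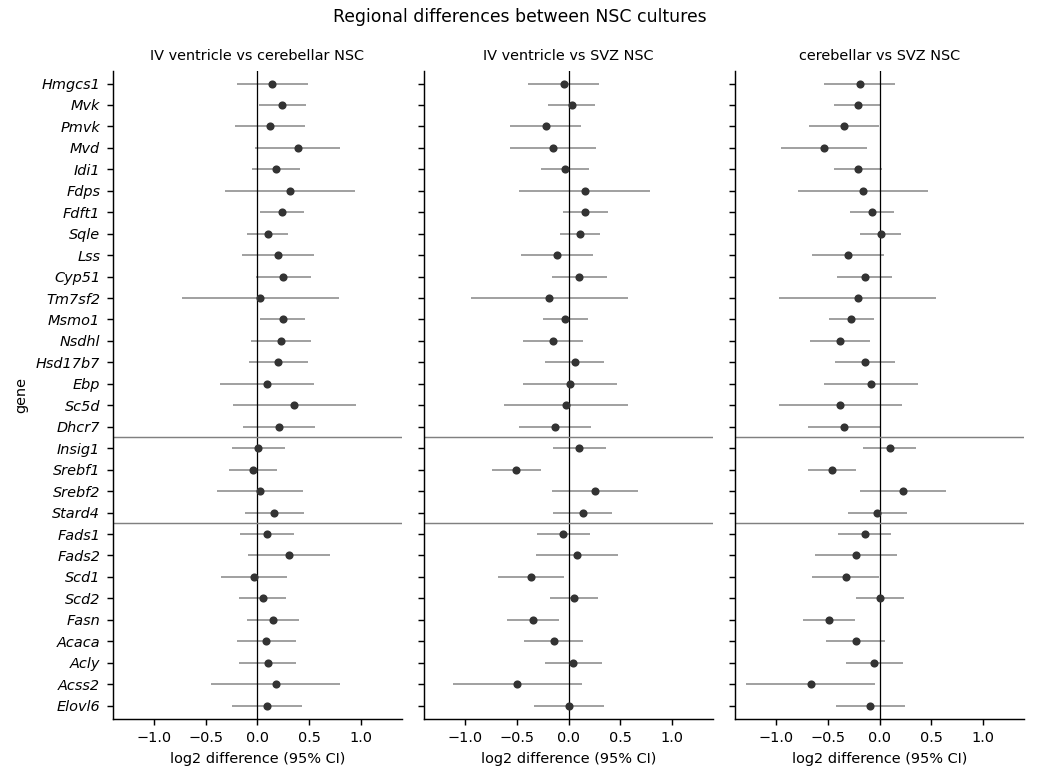
Points are log2 differences between regional NSC groups (3 cultures each) for each gene, bars are 95% confidence intervals of the limma fit, and the vertical line is 0. Sterol arm points lie right of 0 in the hindbrain comparison by up to 0.39, and Srebf1 lies left of 0 in both comparisons with SVZ.

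Between the p53 wild-type tumour lines and hindbrain NSC, Srebf1, Srebf2 and Dhcr7 were called lower in the lines and the other 27 genes were not called. Of 30 genes 3 were called, all lower in the lines, against 9.56% of all genes called in either direction, 6.06% called lower and 3.51% called higher. None of the 3 reached 2-fold, which 1.93% of all genes did. The median difference was 0.04 in the sterol arm and 0.07 in the fatty acid arm, against 0.00 over all genes. No gene of the set had lines and hindbrain NSC without overlap, which 3.45% of all genes had (0.934% higher and 2.52% lower in the lines).

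Srebf1 read 8.16 at the lowest, 8.22 in the median and 8.34 at the highest of the 6 hindbrain cultures. In the 8 lines it read 6.53, 6.98 and 8.34. Line 83 was level with the highest hindbrain culture and the other 7 lines were below all of them. The difference was -0.99 ± 0.30 (limma adjusted p = 0.0438), and the lines spread with an SD of 0.61 against 0.06 in hindbrain NSC. Srebf2 read 7.88, 8.18 and 8.73 in hindbrain NSC and 7.50, 7.68 and 8.40 in the lines, where line 49 was the highest. Its difference was -0.47 ± 0.14 (limma adjusted p = 0.0404). A second probe set of Srebf2 differed by -0.145, and Srebf2 was not called when all probe sets of a gene were averaged. Dhcr7, the reductase that makes cholesterol in the last step, read 9.02, 9.31 and 9.56 in hindbrain NSC and 8.38, 8.78 and 9.39 in the lines. The groups overlapped, and the difference was -0.51 ± 0.15 (limma adjusted p = 0.0464).

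These 3 calls lay near the threshold. Over 26 alternative settings the adjusted p of Srebf1 ran from 0.0139 to 0.251, that of Srebf2 from 0.00593 to 0.495 and that of Dhcr7 from 0.00535 to 0.393, with the sign kept throughout. The count of called genes fell from 3 to 0 without line 91, without line 68, without IV ventricle culture 1 or 2 and without cerebellar culture 1 or 2, and to 1 without line 9, 77 or 83 or cerebellar culture 3. Without line 77 and without cerebellar culture 3 the 1 called gene was another, higher in the lines: Sqle (0.30, limma adjusted p = 0.0239) and Hsd17b7 (0.35, limma adjusted p = 0.0452).

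The other regulators and the fatty acid arm did not pass. Insig1 read 7.82, 8.03 and 8.19 in hindbrain NSC and 7.36, 7.96 and 8.38 in the lines, a difference of -0.05 ± 0.17. Acly, the citrate lyase that supplies acetyl-CoA, had the largest difference of the fatty acid arm. It read 9.99, 10.14 and 10.25 in hindbrain NSC and 9.81, 10.29 and 10.91 in the lines, 0.22 ± 0.14 (limma adjusted p = 0.384). Scd1 read 9.15, 9.51 and 9.61 against 9.40, 9.65 and 9.94, 0.17 ± 0.14 (limma adjusted p = 0.546). Intervals of the difference excluded a 2-fold change for all 9 fatty acid genes: the widest was that of Acss2, from -0.71 to 0.60.

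Markers of other cells differed between lines and hindbrain NSC too. The astrocyte list (7 genes) summed to 10.1 to 10.8 in the lines and 10.4 to 11.5 in hindbrain NSC, with 1 gene called higher in the lines (S100b) and 2 lower: Aldh1l1 read 2.21 to 3.97 against 8.73 to 10.34, and Aqp4 1.74 to 2.03 against 2.52 to 5.01. The oligodendrocyte precursor list (5) summed to 12.0 to 12.7 and 12.4 to 12.6, with Pdgfra, at 5.17 to 8.12 against 3.43 to 5.18, and Cspg4 called higher. The granule neuron lineage list summed to 8.73 to 9.82 and 5.86 to 9.14, with 2 of 5 called higher. Over all genes 3.51% were called higher and 6.06% lower in the lines. The part of these markers in the 3 calls was not tested. The lines share no date mark with the NSC, so tumour, Ptch genotype and date mark cannot be told apart in this comparison.

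Among the lines the levels of the set ran together, and line 74 stood at the top. Line 74 had the highest level of the 8 lines for 25 of 30 genes, 14 of 17 in the sterol arm and 9 of 9 in the fatty acid arm, against 8.8% of all genes. Line 49 had the lowest level for 14 of 30, against 17.3% of all genes. Fasn shows this order: it read 10.50 in line 74, 9.27 in line 91, 9.43 in line 92, 9.95 in line 9, 9.20 in line 49, 9.46 in line 68, 9.81 in line 77 and 9.56 in line 83. Mvk, the mevalonate kinase, read 7.84, 7.30, 6.74, 7.49, 6.75, 6.96, 6.86 and 6.76 in the same order. Line 74 was highest and line 9 next in both.

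As a description over the 8 lines, the median Pearson correlation was 0.69 between sterol arm genes (136 pairs), 0.71 between fatty acid arm genes (36 pairs) and 0.68 across the arms (153 pairs). The median between genes of the set and all other genes was -0.06. Without line 74 these medians were 0.46, 0.47 and 0.35, so part of the common movement rested on that line. The points share array, culture and scaling within a line. In the 8 tissues the same medians were 0.01, 0.01 and -0.04. Among the regulators, the median correlation with the sterol arm was -0.29 for Srebf1, 0.05 for Srebf2 and 0.66 for Insig1. These values moved to -0.21, -0.23 and 0.49 without line 74, and to -0.12, 0.31 and 0.25 when deviations were taken within each date mark of the line names. For Srebf1 none of the 17 correlations was positive over the 8 lines, 2 were without line 74 and 7 within the date marks.

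The lines carried 1 of 2 date marks in their names, 4 lines each. The 4 lines of the first mark (74, 91, 92 and 9) had higher means for 26 of 30 genes, with a median difference of 0.29 against -0.04 over all genes. For 7 genes (Idi1, Lss, Tm7sf2, Sc5d, Dhcr7, Insig1 and Stard4) every line of the first mark was above every line of the second, against 3.58% of all genes. None of the 30 was called by limma, against 0.011% of all genes. With deviations taken within each date mark, the median correlations were 0.56 in the sterol arm, 0.66 in the fatty acid arm and 0.63 across them. The part of the date mark in the differences between lines was not tested.

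Tumour tissue had the lowest mean of the 6 groups for 28 of 30 genes, against 34.3% of all genes. The lines were higher than their matched tissue for 28 of 30 genes and lower for Srebf1, and Ebp was not called, against 49.6% of all genes called in either direction and 26.6% called higher. The median difference was 2.58 in the sterol arm and 1.71 in the fatty acid arm, against 0.06 over all genes. For 28 genes every line was above every tissue, against 11.6% of all genes, and the same number were higher in the line in each of the 8 pairs, against 19% of all genes. In a bulk sample, fewer cells of a type and less RNA per cell cannot be told apart.

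The early steps differed by a wide range. Hmgcs1, which makes the precursor of mevalonate, read 11.02 at the lowest, 11.33 in the median and 11.80 at the highest of the 8 lines, and 8.13, 8.50 and 8.63 in the tissues. The difference was 2.88 ± 0.08, 7.35-fold (limma adjusted p = 3.02e-09). The kinases Mvk and Pmvk differed by 2.24 ± 0.14 and 1.99 ± 0.11, Mvd by 1.27 ± 0.18, the isomerase Idi1 by 2.58 ± 0.09 and the farnesyl diphosphate synthase Fdps by 2.63 ± 0.12. Mvd thus had the smallest difference among the mevalonate steps.

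At the squalene steps, Sqle, the squalene epoxidase that uses oxygen, read 9.46, 9.77 and 10.14 in the lines and 6.94, 7.07 and 7.18 in the tissues. The groups were far apart, with a difference of 2.72 ± 0.08 (limma adjusted p = 2.36e-09). The squalene synthase Fdft1 differed by 1.80 ± 0.10. Lss, which closes the sterol rings to lanosterol, differed by 3.196 ± 0.20, 9.16-fold, and read 3.96 to 4.98 in the tissues.

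Steps after lanosterol held the largest sterol difference, that of Msmo1, and the 1 exception. Cyp51, the lanosterol demethylase, read 8.20, 8.42 and 8.92 in the lines and 5.14, 5.31 and 5.59 in the tissues, 3.13 ± 0.09 (limma adjusted p = 1.91e-09). Nsdhl read 8.79, 8.94 and 9.33 against 6.07, 6.21 and 6.43, 2.74 ± 0.09 (limma adjusted p = 5.69e-09). Msmo1 differed by 3.57 ± 0.12, 11.9-fold, and Dhcr7 by 3.10 ± 0.11, 8.56-fold. Tm7sf2, Hsd17b7 and Sc5d, which reduce or desaturate sterol rings, differed by 2.53 ± 0.16, 1.76 ± 0.10 and 2.27 ± 0.13.

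Ebp, the sterol isomerase between them, read 6.12, 6.93 and 7.24 in the lines and 6.70, 6.89 and 6.98 in the tissues. The tissues lay inside the range of the lines, and the difference was -0.03 ± 0.12 (limma adjusted p = 0.852), with a 95% interval from -0.31 to 0.24.

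In the fatty acid arm Scd1 differed most. It read 9.40, 9.65 and 9.94 in the lines and 4.08, 4.73 and 6.31 in the tissues. The tissue of tumour 83 was the highest and that of tumour 49 the lowest, and the difference was 4.68 ± 0.24, 25.6-fold, the largest of the 30 (limma adjusted p = 1.7e-07). Scd2, the form known as the main desaturase of brain, read 11.70, 11.86 and 12.00 against 9.33, 9.69 and 10.16, 2.12 ± 0.10 (limma adjusted p = 5.83e-08). Fads1 read 9.22, 9.45 and 9.73 against 6.97, 7.11 and 7.31, 2.36 ± 0.09, and Fads2 8.82, 9.001 and 9.38 against 7.14, 7.33 and 7.56, 1.71 ± 0.07 (limma adjusted p = 1.51e-08 and 2.29e-08).

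Among the other genes of the arm, Acss2 differed by 2.15 ± 0.17, Fasn by 1.61 ± 0.16 and the elongase Elovl6 by 1.46 ± 0.08. The smallest differences were those of Acly, 0.97 ± 0.13, and of the acetyl-CoA carboxylase Acaca, 0.71 ± 0.11, 1.63-fold. Only these 2 of the 28 genes that were higher stayed under 2-fold.

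The 2 SREBP genes went opposite ways. Srebf2 read 7.50, 7.68 and 8.40 in the lines and 5.76, 6.21 and 6.38 in the tissues, 1.62 ± 0.08 (limma adjusted p = 8.21e-08). Srebf1 read 6.53, 6.98 and 8.34 in the lines and 8.20, 8.65 and 9.31 in the tissues, -1.45 ± 0.19 (limma adjusted p = 1.14e-04). Line 83 was the only line above the lowest tissue. Each line was below its own tissue in Srebf1. Insig1 read 7.36, 7.96 and 8.38 against 5.72, 5.96 and 6.29, 1.96 ± 0.11 (limma adjusted p = 2.97e-07). Stard4, which carries cholesterol between membranes, read 8.11, 8.61 and 9.25 against 7.09, 7.11 and 7.39, 1.51 ± 0.10 (limma adjusted p = 8.41e-07).

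**Figure D3:**
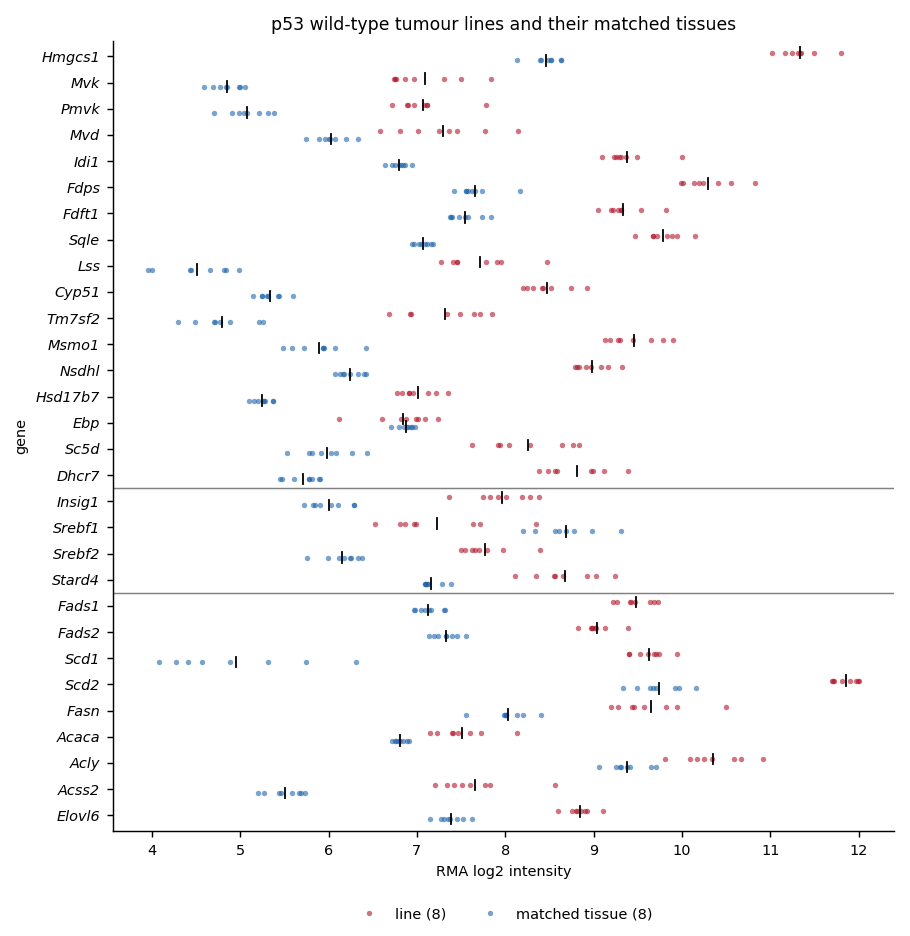
For each gene (rows) the points give the RMA log2 intensity (x axis) of the 8 p53 wild-type lines in red and of their 8 matched tissues in blue, and the short bars give group means; levels are comparable within a row only. Red and blue are separate in 28 rows and overlap in Ebp and in Srebf1, where the tissues are higher.

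The tissues were also the lowest samples of the whole series for most of the set: for 22 of 30 genes every tissue was below each of the 19 cultures, against 6.58% of all genes. As a description, the correlation of a gene's level between line and own tissue across the 8 pairs had a median of 0.07 over the 30 genes and of 0.12 over all genes. Markers of other cells moved with this comparison. The granule neuron lineage list (5 genes) summed to 12.0 to 12.3 in the tissues and 8.73 to 9.82 in the lines, the neuron list (6) to 11.3 to 12.3 and 9.71 to 10.3, the microglia list (6) to 9.39 to 10.8 and 4.52 to 4.998, the mural and fibroblast list (5) to 7.76 to 8.97 and 4.28 to 4.75, and the endothelium list (5) to 6.08 to 6.62 and 4.41 to 4.75. The microglia markers Aif1, Cx3cr1 and Tyrobp were under 2 in every line. The astrocyte list (7) summed to 9.90 to 11.4 in the tissues and 10.1 to 10.8 in the lines, but 4 of its genes were called higher in tissue, among them Aqp4 (6.35 to 9.42 against 1.74 to 2.03) and Gfap (4.76 to 8.52 against 2.74 to 4.22), and 1 lower (Slc1a3). The oligodendrocyte precursor list (5) summed to 10.1 to 10.8 in the tissues and 12.0 to 12.7 in the lines. Its genes went both ways: Olig1, Olig2 and Cspg4 were called higher in the lines, and Pdgfra (9.28 to 10.10 in tissue against 5.17 to 8.12) and Sox10 (5.27 to 6.10 against 3.73 to 5.48) lower. Over all genes 26.6% were called higher and 23.1% lower in the lines than in tissue. The dividing cell list (5 of 6 measured) summed to 12.0 to 12.4 in the tissues and 12.2 to 12.6 in the lines. The part of these cell types in the result was not tested.

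Of 24 measured of 27 related genes, 11 were called higher and 6 lower in the lines than in tissue, against 26.6% and 23.1% of all genes. The 4 with the smallest p were all higher. Me1, the malic enzyme that supplies NADPH, differed by 3.32 ± 0.13, the elongases Elovl1 and Elovl5 by 1.96 ± 0.08 and 1.08 ± 0.07, and the acyl-CoA synthetase Acsl3 by 1.75 ± 0.11 (limma adjusted p = 1.93e-08, 1.93e-08, 5.72e-07 and 5.99e-07).

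The p53 het tumours 27 and B had a lower mean than the p53 wild-type lines for 26 of 30 genes. Over all genes this held for 8200 of 18194. Of 30 genes 20 were called lower and 1, Srebf2, higher, against 26.3% of all genes called in either direction, 11.8% lower and 14.5% higher. All 9 fatty acid arm genes were called lower, with a median of -0.66, and 9 of 17 sterol arm genes, with a median of -0.75, against 0.03 over all genes. The fit assumes that the 2 tumours vary like the other cultures, but their spread differed by gene. Their SD was 1.12 for Nsdhl, 1.03 for Fdps and 0.02 for Sqle, against 0.19, 0.29 and 0.21 in the lines. The size and the count rested in large part on tumour 27, and each tumour is therefore given on its own.

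In the sterol arm, Hmgcs1 read 9.74 in tumour 27 and 9.998 in tumour B. Both were below the lowest of the 8 lines, 11.02, and the difference was -1.47 ± 0.17 (limma adjusted p = 4.96e-06). Fdft1 read 8.35 and 8.68, below the lowest line at 9.05, and differed by -0.83 ± 0.15 (limma adjusted p = 4.59e-04). Tm7sf2 read 5.23 and 5.80, below the lowest line at 6.69, and had the largest sterol difference, -1.81 ± 0.34 (limma adjusted p = 6.38e-04). Hsd17b7 read 6.35 and 6.48, below the lowest line at 6.78, and differed by -0.60 ± 0.14 (limma adjusted p = 0.00411). The other called genes were Mvk (-0.82 ± 0.24), Pmvk (-0.73 ± 0.26), Idi1 (-0.86 ± 0.20), Fdps (-0.999 ± 0.32) and Nsdhl (-0.75 ± 0.26). Mvk and Idi1 were below the range of the lines in both tumours. Pmvk, Fdps and Nsdhl were below it in tumour 27 alone, at 5.73, 8.57 and 7.44. In tumour B they read 6.96, 10.03 and 9.03, inside that range.

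Of the sterol genes that were not called, Sqle read 9.78 and 9.82, inside the range of the lines, and its difference was 0.01 ± 0.13 with a 95% interval from -0.26 to 0.27. Lss and Cyp51 were low in tumour 27 alone, at 6.05 and 7.28, and read 7.79 and 8.62 in tumour B, inside the range of the lines. Ebp read 6.70 in tumour 27 and 7.91 in tumour B, which was above all 8 lines. Mvd, Msmo1, Sc5d and Dhcr7 differed by -0.59 ± 0.33, -0.47 ± 0.18, -0.85 ± 0.31 and -0.49 ± 0.23.

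In the fatty acid arm, Fads2 read 7.90 in tumour 27 and 8.11 in tumour B, below the lowest line at 8.82, and differed by -1.04 ± 0.16 (limma adjusted p = 9.86e-05). Scd2 read 11.47 and 11.41, below the lowest line at 11.70, and differed by -0.41 ± 0.10 (limma adjusted p = 0.00687). Acss2 read 4.64 in tumour 27 and 7.17 in tumour B, where the lowest line was at 7.21. Its difference, -1.75 ± 0.45 (limma adjusted p = 0.00751), was the largest of the arm, and it was -0.49 without tumour 27. Scd1 read 8.29 and 9.40, level with the lowest line in tumour B, and differed by -0.78 ± 0.21 (limma adjusted p = 0.00876). Fads1 (-0.58 ± 0.16), Fasn (-0.87 ± 0.25), Acaca (-0.66 ± 0.19), Acly (-0.66 ± 0.20) and Elovl6 (-0.49 ± 0.17) were also called. Fasn, Acaca and Acly were below the range of the lines in both tumours. Tumour B was level with the lowest line for Fads1, at 9.22, and inside the range for Elovl6, at 8.72.

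Among the regulators, Stard4 read 6.60 in tumour 27 and 7.91 in tumour B, both below the lowest line at 8.11, and differed by -1.42 ± 0.28 (limma adjusted p = 8.94e-04). Insig1 differed by -1.04 ± 0.24 (limma adjusted p = 0.00407). Its 3 technical arrays of tumour 27 read 8.72, 5.46 and 8.33, a spread of 3.26, and those of tumour B read 6.20, 6.37 and 6.48, all below the lowest line at 7.36. The arrays of tumour 27 lay on both sides of 7.36. Srebf2 read 8.32 and 8.47 against 7.50, 7.68 and 8.40 in the lines, 0.62 ± 0.20 (limma adjusted p = 0.0305). Tumour 27 was inside the range of the lines. This call lay near the threshold: over 21 alternative settings the adjusted p ran from 0.00367 to 0.207, with the sign kept, and 8 of them did not call it, among them the one without tumour 27 (0.70, limma adjusted p = 0.0957) and the one without tumour B (0.55, limma adjusted p = 0.207). A second probe set of Srebf2 differed by 0.18. Srebf1 read 6.56 in tumour 27 and 8.77 in tumour B, where the lowest line was at 6.53 and the highest at 8.34, and its difference was 0.43 ± 0.44 (limma adjusted p = 0.55).

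Tumour 27 was the lowest of all 19 cultures for 23 of 30 genes, against 11.5% of all genes, and tumour B for 2 (Insig1 and Scd2), against 10.8%. Tumour 27 was below the range of the 8 lines for 25 genes and tumour B for 14, against 19.6% and 19.9% of all genes, and 13 genes were below it in both, against 11.4%. The median distance from the mean of the lines was -1.14 for tumour 27 and -0.33 for tumour B. Every array of tumour 27 was below every array of tumour B for 23 of 30 genes, against 19.5% of all genes, and these arrays are labelled as technical replicates of 1 tumour each.

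Without tumour 27 the count of called genes fell from 21 to 8 of 30, against 19.7% of all genes called at that setting. The 6 that were lower were Hmgcs1 (-1.34, limma adjusted p = 4.33e-04), Fdft1 (-0.66), Tm7sf2 (-1.52), Insig1 (-1.61), Fads2 (-0.93) and Scd2 (-0.44), and the 2 that were higher were Ebp (1.07, limma adjusted p = 0.0253) and Srebf1 (1.54, limma adjusted p = 0.0195). Nsdhl changed sign, to 0.04, as did Lss (0.08) and Cyp51 (0.15), which were not called with both tumours. Without tumour B 20 were called, against 19.9% of all genes.

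**Figure D4:**
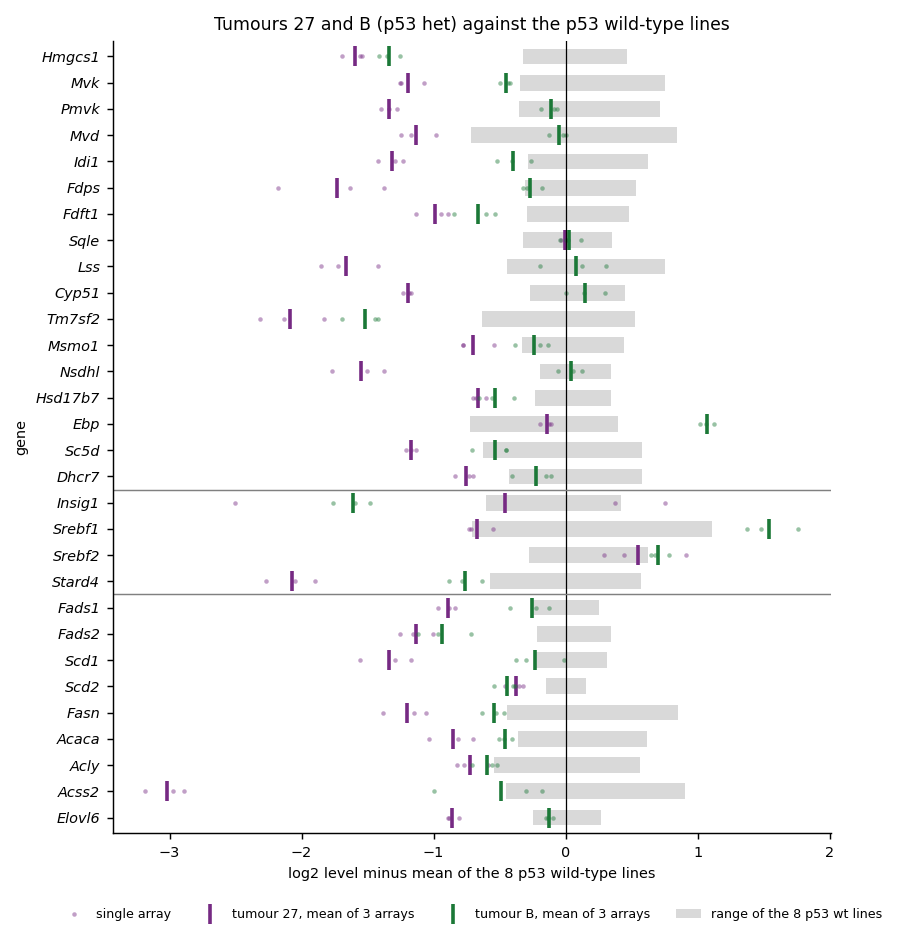
Grey bars give the range of the 8 p53 wild-type lines for each gene around their mean (0 on the x axis, log2 units), and coloured ticks give tumour 27 (purple) and tumour B (green), each the mean of 3 technical arrays shown as dots. Tumour 27 lies left of the grey bar for 25 genes and tumour B for 14. The tumours lie on opposite sides of 0 for Lss, Cyp51, Nsdhl, Ebp, Srebf1 and Sqle, with both close to 0 for Sqle.

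Against hindbrain NSC, which are the reference of the wild-type comparison too, the same 2 tumours gave 15 called genes, all lower, against 26.8% of all genes called and 13% called lower. In the sterol arm these were Hmgcs1 (-1.54 ± 0.17, limma adjusted p = 4.08e-06), Fdft1 (-0.85 ± 0.15), Tm7sf2 (-1.63 ± 0.35), Idi1 (-0.91 ± 0.21), Dhcr7 (-0.9996 ± 0.23) and Mvk (-0.78 ± 0.25). In the fatty acid arm they were Fads2 (-0.97 ± 0.16), Fads1 (-0.66 ± 0.16), Scd2 (-0.43 ± 0.11), Acss2 (-1.81 ± 0.47), Elovl6 (-0.60 ± 0.17), Scd1 (-0.62 ± 0.21) and Fasn (-0.74 ± 0.26), and among the regulators Insig1 (-1.09 ± 0.25) and Stard4 (-1.15 ± 0.29). Hmgcs1 read 11.17, 11.42 and 11.64 in the hindbrain cultures, well above both tumours. Idi1 read 9.25, 9.45 and 9.56 there against 8.06 in tumour 27 and 8.98 in tumour B. Fdft1 read 9.19, 9.36 and 9.54 in the hindbrain cultures and Tm7sf2 6.57, 7.15 and 7.79, again above both tumours. In the fatty acid arm Fads1 read 9.35, 9.57 and 9.76 there against 8.58 and 9.22, and Scd2 11.70, 11.87 and 11.99 against 11.47 and 11.41, without overlap, while Acss2 read 7.12, 7.88 and 8.07, with tumour B at 7.17 inside that range. In all, 16 genes had both tumours below every hindbrain culture, against 16.7% of all genes.

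Srebf2 and Srebf1 were not called, at differences from hindbrain NSC of 0.15 ± 0.21 and -0.56 ± 0.45 (limma adjusted p = 0.68 and 0.431). The medians were -0.70 in the sterol arm and -0.62 in the fatty acid arm, against 0.03 over all genes. Without tumour 27 the count fell from 15 to 7 of 30, of which 6 were lower and Ebp higher, against 20.8% of all genes called at that setting. Without tumour B it was 20, against 21.2%. Over the 5 culture groups, the mean of the p53 het tumours was the lowest for 26 of 30 genes, against 29.1% of all genes; the exceptions were Sqle, Ebp, Srebf1 and Srebf2.

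Markers moved with the p53 het cultures as well, alike within some lists and not within others. Against the lines, all 5 neural stem cell genes had lower means, and 4 of them were called lower. Of the 5 dividing cell genes measured, 3 were called lower and none higher. Of 6 neuron genes 1 was called higher and 2 lower. Of 7 astrocyte genes 1 was called higher and 2 lower, and of 5 mural and fibroblast genes only 1 was called, higher. Over all genes 14.5% were called higher and 11.8% lower. The neural stem cell list summed to 12.1 and 12.4 against 13.2 to 13.6 in the lines, the neuron list to 8.72 and 9.07 against 9.71 to 10.3, the mural and fibroblast list to 4.66 and 6.39 against 4.28 to 4.75, and the dividing cell list to 11.7 and 12.2 against 12.2 to 12.6. The granule neuron lineage list summed to 7.65 and 7.9999 against 8.73 to 9.82, the astrocyte list to 9.23 and 10.8 against 10.1 to 10.8, and the myelinating oligodendrocyte list (5 of 6 measured) to 8.96 and 10.1 against 8.09 to 9.52, with Mbp called higher.

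The oligodendrocyte precursor list had like sums, 12.1 and 12.5 against 12.0 to 12.7, but its genes went both ways. Sox10 read 9.59 and 10.53 in the p53 het tumours and 3.73 to 5.48 in the lines, and Pdgfra 10.11 and 10.27 against 5.17 to 8.12, both called higher. Olig1 (-0.92) and Olig2 (-1.50) were called lower. The microglia markers Aif1, Cx3cr1, Tyrobp and C1qb and the endothelium markers Pecam1 and Tek were under 2 in both tumours. The part of these markers in the result was not tested. The p53 het arrays share no date mark with the lines or the NSC, so genotype, tumour and date mark cannot be told apart.

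Of the 24 related genes measured, 6 were called higher and 3 lower in the p53 het cultures than in the lines, against 14.5% and 11.8% of all genes. Dgat2, which makes triglyceride, differed by 1.56 ± 0.21, Acacb, the mitochondrial acetyl-CoA carboxylase, by 1.21 ± 0.16 and Mylip, a ligase that degrades the LDL receptor, by 1.27 ± 0.18. The elongase Elovl2 differed by -2.96 ± 0.42 and read 1.58 and 1.88 in the 2 tumours (limma adjusted p = 2.63e-05, 2.84e-05, 4.48e-05 and 4.95e-05 in the order given). In the comparison of the wild-type lines with hindbrain NSC, 3 related genes were called higher and 2 lower, against 3.51% and 6.06% of all genes. Npc2, which moves cholesterol out of lysosomes, differed by 0.49 ± 0.11, Insig2 by 0.40 ± 0.09, Elovl1 by 0.27 ± 0.07 and Elovl2 by -1.27 ± 0.29 (limma adjusted p = 0.00806, 0.00859, 0.0232 and 0.01). In p53 het cultures against hindbrain NSC, 5 related genes were called higher and 5 lower, against 13.8% and 13% of all genes, and Elovl2 (-4.23 ± 0.43), Acacb (1.35 ± 0.17), Dgat2 (1.62 ± 0.22) and Lpin1 (-1.79 ± 0.25) had the smallest p.

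**Figure D5:**
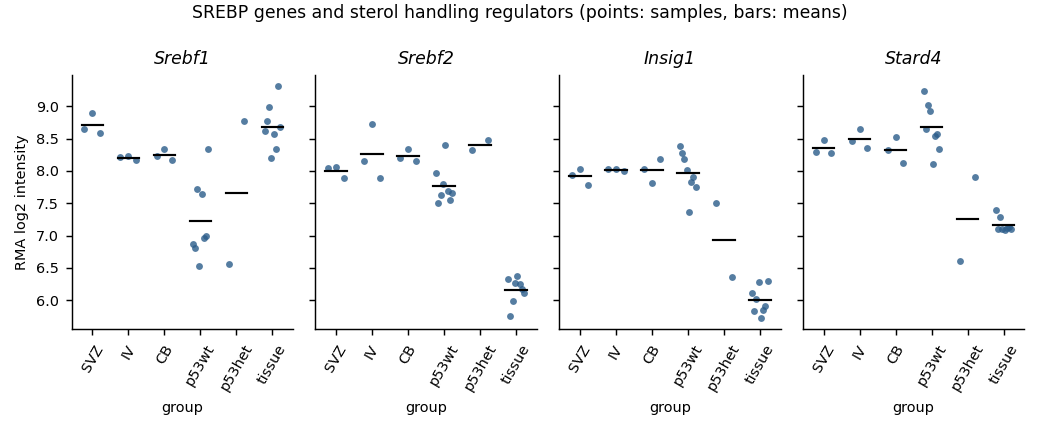
RMA log2 intensity (y axis) of Srebf1, Srebf2, Insig1 and Stard4 in each sample (points) of the 6 groups (x axis), with group means as bars. Srebf1 is high in SVZ NSC, tumour B and tissue and spread over 6.53 to 8.34 in the p53 wild-type lines, while Srebf2 and Insig1 are lowest in tissue.

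For 18 genes of the set another single-symbol probe set also read above the median gene. Of these 26 probe sets, all 26 had the sign of the chosen one in lines against tissue and in p53 het against wild-type cultures.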

How the data were processed

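RNA from 31 samples was labelled with biotin and hybridised to 1 Affymetrix mouse array each, per the labels. The deposited values are log2 intensities that the authors made with RMA, per the submitters' processing notes. They are relative levels. The version of RMA is not given in the sources used here. Values were used as deposited, with no filter on low signal. Of 45101 probe sets, 34958 carried 1 gene symbol, and others were left out. The number of arrays limits the precision.

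R 4.3.3 ran limma 3.58.1 for every comparison, with lmFit and eBayes, two-sided tests and Benjamini-Hochberg adjustment over 18194 genes. The 9 NSC arrays shared a fit, the 19 cultures shared another, where hindbrain NSC stood for both hindbrain regions weighted equally, and lines and tissues were fitted with the tumour as a block. The script was tested on simulated data. Genes and lists were chosen with earlier results of these data known. In each comparison every called gene of the set is named, with up to 4 called related genes of the smallest p, sample values are given for up to 4 called genes per arm with the smallest p (with none called, the 2 largest differences), and Insig1, Srebf1 and Srebf2 always. Deviations of cultures with the same replicate number correlated at 0.32, 0.25 and 0.32 between IV ventricle and SVZ NSC. Between cerebellar and SVZ NSC they correlated at 0.18, 0.34 and 0.17, and between the hindbrain regions at 0.38, -0.14 and -0.06. Replicate numbers of the NSC go in part with date marks, so number and mark cannot be fully told apart here. Motifs and figures used Python 3.11.15, pandas 2.3.3, numpy 2.4.6 and matplotlib 3.10.9. Alternatives were array scalings, filters, probe set rules, priors, reference groups, blocks and leaving out each sample.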

Additional observations from a re-analysis of the deposited data

Results flagged for a closer look

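A single sample stood far from the other 7 of its group in 4 of the 60 groups of 8 tested (30 genes, in lines and in tissues), by the ratio of its gap to the group's range. Chance gives about 1 such group in 20. Line 74 was that sample for 3 genes: Pmvk at 7.79 (next line 7.11), Idi1 at 9.9996 (next 9.49) and Acss2 at 8.56 (next 7.83). Fdps read 8.17 in the tissue of tumour 92 (next tissue 7.74).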

How the results depend on the processing

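The 4064 values under alternatives were those of single genes and of the sterol and fatty acid arm medians. Of these, 3835 were counted as the same: no gene call changed, or the arm median stayed within the spread. A sign change in a gene not called before or after counted as the same. Among gene values 162 lost a call, 49 gained one and 2 reversed sign. The 16 that moved by more than the spread were arm medians. Both of these reversals were Nsdhl in p53 het against wild-type cultures, at 0.0406 without tumour 27 and 0.0891 without line 74 and tumour 27. Leaving out 1 culture at a time, Nsdhl ran from -1.55 (without tumour B) to 0.0406. Lss and Cyp51, which were not called, also changed sign without tumour 27, to 0.08 and 0.15. In lines against tissue, 29 genes were called with every sample left out in turn. Called genes numbered 0 under every sample left out in the NSC comparisons, and 1 in IV ventricle against SVZ NSC with the replicate block and 1 in cerebellar against SVZ NSC with the date mark as a block; the replicate block changed no other call among the NSC comparisons. In wild-type lines against hindbrain NSC, 3 genes became 0 with a 2-fold minimum, 0 with the date mark as a random block, 0 with cerebellar and 0 with IV ventricle NSC as the only reference, 1 with only the groups compared in the fit and 1 with only the second date mark's lines, and 0 to 2 with a sample left out. In p53 het against hindbrain NSC, 15 became 5 with a 2-fold minimum, and 7 to 20 with a sample left out. In p53 het against wild-type cultures, 21 became 6 with a 2-fold minimum, 12 with only the groups compared, 13 with only the second date mark's lines, 8 without line 74 and tumour 27, and 8 to 23 with a sample left out. The cause was not tested, apart from the fewer samples or the added minimum themselves. The settings by date mark of the lines and without line 74 and tumour 27 were chosen after seeing the data.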

Other observations

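The related genes Abcg1, Abca1 and Mylip were lower in lines than in tissue; they were singled out after their values were seen. Abcg1, a sterol exporter, read 2.28 to 4.86 in the 8 lines and 5.40 to 6.04 in the 8 tissues, a difference of -2.68 ± 0.19. Abca1, the exporter that loads lipoproteins, read 4.16 to 7.56 against 8.29 to 8.81, -2.09 ± 0.33. Mylip, which degrades the LDL receptor, read 2.94 to 3.71 against 4.62 to 5.60, -1.90 ± 0.16. Lines and tissues did not overlap for any of the 3 (limma adjusted p = 1.69e-06, 4.25e-04 and 4.22e-06). Tissue markers of microglia and vessels moved the same way, and their part in these values was not tested. Abca1 read 4.38 in 1 of the p53 het tumours and 8.35 in the other. Npc1, which exports lysosomal cholesterol, differed between lines and tissue by 1.31 ± 0.14 (limma adjusted p = 2.85e-05), with the sign of the synthesis genes.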
